A study of Mus musculus with 8 samples.

Results

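The genes described here were low in the middle of a differentiation course: expressed in mouse embryonic stem cells, at least 2-fold lower in mesoderm, and at least 2-fold higher again in cardiac precursors. They are the genes whose log2(RPKM + 1) in mesoderm lay at least 1 below that in stem cells and at least 1 below that in cardiac precursors. RPKM is the number of reads scaled to gene length and to library size, and log2(RPKM + 1) understates differences of genes with low values. The rule was met by 224 of 13540 genes (1.65%), of which 14 were set aside by name (Acta2, Tagln, Klf2, Dppa4 and names that start with Slc, Zfp, Col, Itg or Kcn), leaving 210. Their values in these 3 stages chose them and are given as a description, while their level in cardiomyocytes was not used.

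Poly(A) RNA came from 129/Ola mouse embryonic stem cells (ESC, day 0) and from 3 later stages of their differentiation, namely mesodermal cells on day 4 (MES), precursors of the heart on day 5.3 (CP) and cardiomyocytes on day 10 (CM), with 2 libraries per stage. Cells were grown as floating aggregates in serum-free medium, taken apart and aggregated anew in VEGF, BMP4 and Activin A, and last plated in StemPro-34 with FGF10, VEGF and basic FGF. GEO's labels give this protocol alike for all stages and do not say in which form cells were collected, so stage and culture form cannot be told apart. The table holds 1 value per gene and stage and none per library, so no difference has a replicate check, an SD or a p-value, and folds describe these stage values. Depths recovered from the steps of low values were, in units of 1000000 reads, 75.3 for ESC, 62.0 for MES, 64.8 for CP and 88.5 for CM. Where 4 values of a gene follow each other below, their order is ESC, MES, CP, CM. In bulk RNA, fewer cells of a type and less RNA per cell cannot be told apart.

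Most stage markers were highest at their own stage. Of 9 pluripotency markers, 8 were highest in ESC, of 12 mesoderm markers 11 were highest in MES, and all 12 cardiac markers were highest in CP (3) or CM (9). Endothelial markers (10 genes) summed to 23.8 (ESC), 65.8 (MES), 362 (CP) and 137 RPKM (CM). Kdr alone gave 0.365, 63.2, 53.4 and 21.8 RPKM of these sums, so most of the MES sum was that gene. Blood markers (8 genes) summed to 2.62, 8.76, 283 and 12.4 RPKM (ESC, MES, CP, CM). Smooth muscle markers (8 genes) summed to 290, 22.5, 731 and 2761 RPKM (ESC, MES, CP, CM). Of these 8, Cnn1 is a member, and Acta2 and Tagln met the rule but were set aside by name. Acta2 and Tagln alone gave 131 and 134 RPKM of the ESC sum and 1.96 and 2.26 RPKM of the MES sum. Most of the fall in that sum from ESC to MES was thus in genes that the rule chose, and nothing is read from it. The part of endothelial, blood or smooth muscle cells in the levels below was not tested.

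Mesoderm forms from pluripotent, epithelial-like cells by a transition in which junctions and adhesion to the basement membrane are taken apart and cells become migratory. Cardiac precursors then become cohesive again and build an actin-based contractile apparatus. Genes of actin filaments, of junctions and of the basement membrane are in part used by both stem cells and heart cells, and several are known targets of serum response factor (SRF) and its coactivators of the myocardin family, or of the TEAD factors and YAP, which respond to actin tension and adhesion.

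The 210 genes had median levels of 8.001 (ESC), 1.40 (MES), 8.66 (CP) and 15.3 RPKM (CM), against 6.07, 6.73, 7.11 and 6.50 RPKM over all 13540 genes. Their summed RPKM was 4244 (ESC), 801 (MES), 3897 (CP) and 11145 (CM), or 1.60%, 0.315%, 1.62% and 4.28% of the table's total. The dip, meaning the smaller of the 2 log2 differences to MES, had a median of 1.35 and reached 4.06, and 20 genes dipped at least 4-fold. The rule requires all 210 to be 2-fold or more below ESC in MES and 2-fold or more higher in CP than in MES, steps that 11.2% and 8.91% of all genes met, while 3.91% of all genes were at least 2-fold lower in CP than in MES and 11.1% higher in MES than in ESC. ESC was higher than CP in 109 genes and CP higher than ESC in 101. In MES 91 genes were under 1 RPKM and 3 were listed at 0 (Edn1, Sncg and Rac2), where 3 reads would have given 0.0226, 0.0568 and 0.0383 RPKM. Whole reads were recovered for 131 of the 210, and the 95% Poisson intervals given below from them cover counting error only. Just inside the threshold were Vsig2 (1.002), Eef1a2 (1.004) and Tle6 (1.006), and just outside it Efcab4a (0.9997), Cisd3 (0.9993) and Lmna (0.9952).

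**Figure D1:**
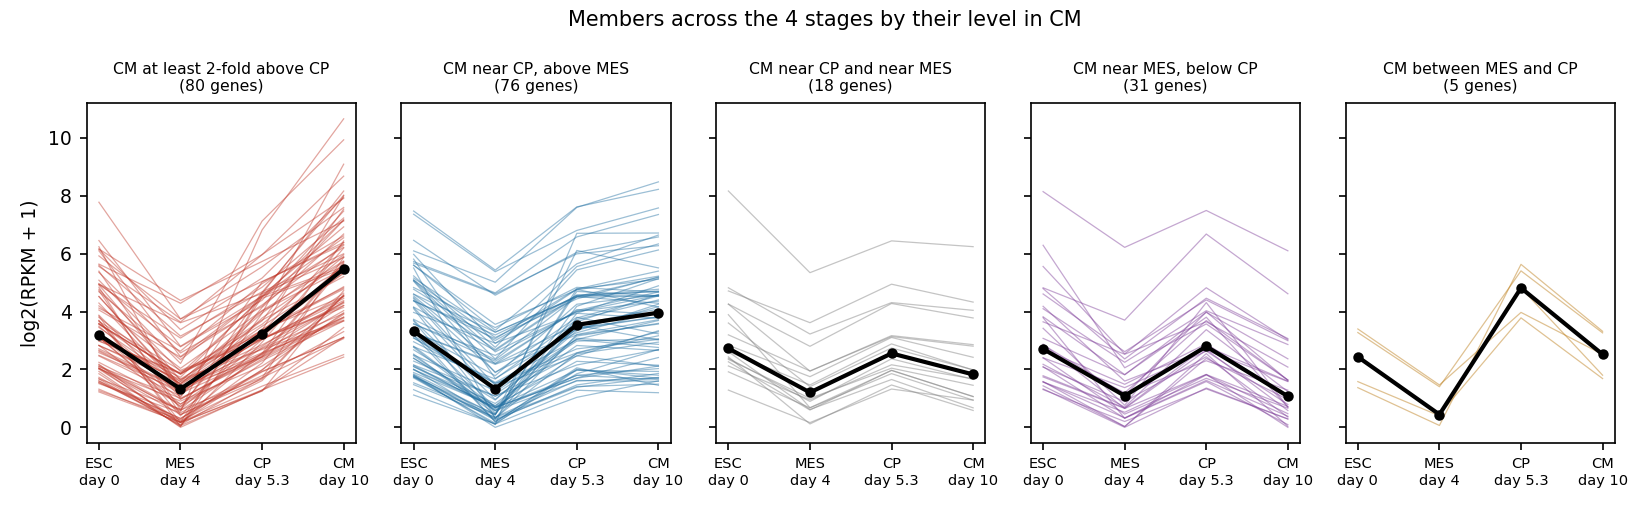
Each thin line is 1 gene on the log2(RPKM + 1) scale at the 4 stages, split into panels by the level in CM, and the black line is the median of the panel. MES is the low point by choice of the genes, and the largest panel holds the 80 genes at least 2-fold higher in CM than in CP.

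In CM most of these genes were not low. On the log2(RPKM + 1) scale 161 of the 210 (76.7%) were at least 2-fold higher in CM than in MES and 2 were lower, Ccdc88c and Aard, while 17.6% of all genes were higher and 19.6% lower. That contrast starts from the MES values that chose the genes, so nothing is read from it beyond the count. Of the 210, 80 (38.1%) were at least 2-fold higher in CM than in CP and 36 (17.1%) lower, against 11.3% and 12.8% of all genes. The median difference CM minus CP was 0.59 for the 210 and -0.15 for all genes. Compared with ESC, 78 (37.1%) were higher in CM and 41 (19.5%) lower, against 22.2% and 23.4% of all genes. The CP and ESC values also chose the genes, so these shares are a description and all genes are not a like set. In 111 genes CM was the highest of the 4 stages, in 57 ESC and in 42 CP, and 58 genes (27.6%) stood at least 2-fold above both ESC and CP in CM, as 8.75% of all genes did.

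Being low in MES alone held for most but not all of them. The 80 genes above CP had a median of 43.4 RPKM in CM. A further 76 were within 2-fold of CP and above MES, with a median of 14.6 RPKM. At the other end, 31 were near the MES level and at least 2-fold below CP (median 1.10 RPKM), 18 lay within 2-fold of CP but also no more than 2-fold above MES (median 2.57 RPKM), and 5 lay between MES and CP. In 11 genes CM was even lower than MES, so for these MES was not the low point.

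**Figure D2:**
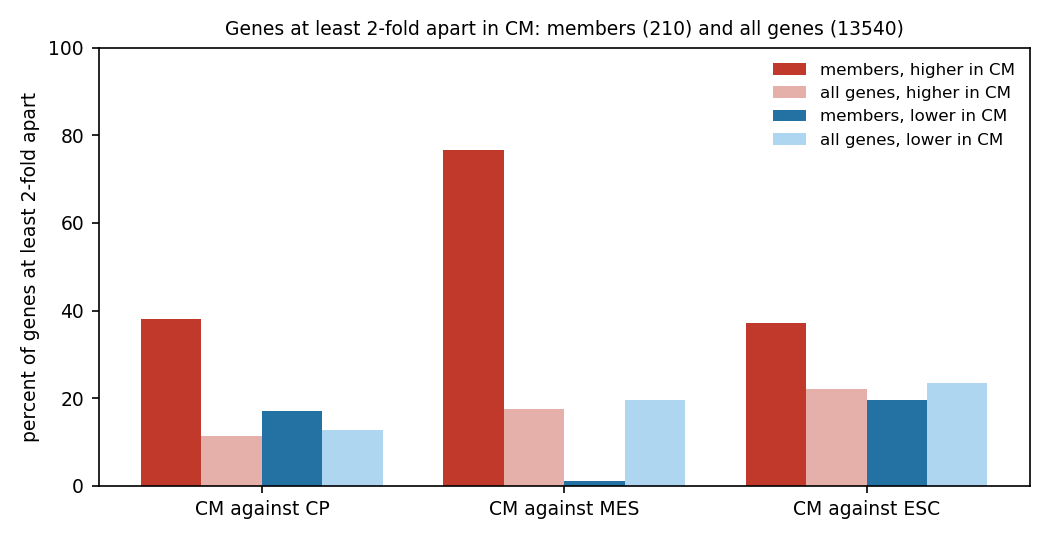
Bars give the percentage of genes at least 2-fold higher or lower in CM than in CP, MES and ESC, for the 210 members beside all 13540 genes. Members higher in CM than in CP made up 38.1%, against 11.3% of all genes, and there are no error bars because the table has 1 value per stage.

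Neighbouring sets of genes give a scale for this. Of 997 other genes at least 2-fold higher in CP than in MES, 22.2% were at least 2-fold higher in CM than in CP and 28.3% lower, with a median CM minus CP of -0.21. Of 1309 other genes whose MES level was 2-fold or more below that of ESC, 14.4% were higher in CM than in CP and 7.87% lower (median -0.02). These shares describe the table, and with 1 value per stage the differences between the sets could not be tested. Both sets also hold the 14 genes that met the rule and were set aside by name. The sets also differ in level. Medians in CP and CM were 8.40 and 7.93 RPKM for the 997, and 1.04 and 1.00 RPKM for the 1309. The 210 members had 8.66 and 15.3 RPKM. Near 1 RPKM log2(RPKM + 1) understates differences, so the 1309 are not a like set.

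The actin and muscle cytoskeleton gave the largest role group, 22 genes, of which 8 passed the 2-fold step upward between CM and CP and 4 passed it downward. Role groups were assigned by known function after the values were seen and carry no test, and their counts stand beside the 11.3% of all genes higher and 12.8% lower in CM than in CP. Acta1, skeletal alpha-actin, which the embryonic heart also uses, had the largest dip of the 210, at 25.4, 0.525, 24.4 and 259 RPKM (ESC, MES, CP, CM). Myl9, the regulatory light chain of smooth muscle and nonmuscle myosin, stood at 32.9, 3.61, 139 and 975 RPKM. The rule chose both genes for ESC and CP values above MES, and CM was more than 2-fold above CP in both. Cnn1, the actin-binding protein calponin 1, was at 7.38, 2.32, 21.8 and 73.4 RPKM, and Tpm1, a tropomyosin that lies along the actin filament, at 67.3, 31.3, 193 and 356 RPKM. The Z-disc and stress fibre scaffold Palld was at 6.95, 2.68, 10.8 and 58.9 RPKM and the LIM protein Csrp1 at 51.9, 24.04, 94.5 and 162 RPKM. Crip2, another LIM protein, stood at 46.1, 11.5, 61.4 and 408 RPKM. Not all members of this group followed the muscle pattern. Lima1, which bundles actin filaments, was at 46.1, 4.80, 27.3 and 7.17 RPKM, and Kank3 at 26.7, 4.14, 21.02 and 7.38 RPKM, so both were back near the MES level in CM. Pdlim1 stood at 26.3, 7.01, 22.7 and 22.1 RPKM, and Tmsb4x, thymosin beta 4, which holds actin monomers, at 163, 40.6, 111 and 190 RPKM. Smtnl1, a smoothelin-like protein, was at 1.70, 0.0183, 4.85 and 0.0257 RPKM, where the MES value rests on 2 recovered reads.

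Of 48 genes in the table from a list of actin cytoskeleton and focal adhesion genes, 6 (12.5%) were members, against 1.55% of all genes, and 16 of the 48 were at least 2-fold higher in CP than in MES. Of 22 SRF and myocardin-related target genes 3 were members (Myl9, Cnn1 and Tpm1) and 2 more, Acta2 and Tagln, met the rule and were set aside by name. Acta2, smooth muscle actin, stood at 131, 1.96, 498 and 1944 RPKM (ESC, MES, CP, CM) over the 4 stages. Of 15 YAP and TEAD target genes 2 were members, Ankrd1 and the receptor kinase gene Axl (5.20, 1.27, 7.65 and 48.5 RPKM). These lists were written with earlier results on these data known and carry no test.

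Promoter windows of 300 bases from RefSeq (GRCm38.p6), 250 bases before to 50 after the start, existed for 155 members, and 114 had exactly 1. The CArG box, the SRF motif, was found in 3 of these 114 (2.63%), namely Acta1, Lima1 and Myl9, and in 1.36% of 8172 genes of the table with 1 window. With so few matches nothing is read from the difference in share. All 3 are genes of the actin group, while Tpm1 of that group had 1 window and no box. In Lima1, whose window is not shown, the box starts 47 bases before the start, and CM minus CP was -1.79. The windows of Acta1 (chr8:123894726-123895025, minus strand) and Myl9 (chr2:156775214-156775513, plus strand) are shown for the box they hold, printed in capitals, which starts 73 bases before the start in Acta1 and 161 bases before it in Myl9.
Acta1: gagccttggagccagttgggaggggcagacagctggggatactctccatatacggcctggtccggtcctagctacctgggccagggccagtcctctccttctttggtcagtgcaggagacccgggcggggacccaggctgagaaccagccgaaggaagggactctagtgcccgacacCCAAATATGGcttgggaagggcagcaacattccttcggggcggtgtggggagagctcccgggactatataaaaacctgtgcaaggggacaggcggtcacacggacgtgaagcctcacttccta
Myl9: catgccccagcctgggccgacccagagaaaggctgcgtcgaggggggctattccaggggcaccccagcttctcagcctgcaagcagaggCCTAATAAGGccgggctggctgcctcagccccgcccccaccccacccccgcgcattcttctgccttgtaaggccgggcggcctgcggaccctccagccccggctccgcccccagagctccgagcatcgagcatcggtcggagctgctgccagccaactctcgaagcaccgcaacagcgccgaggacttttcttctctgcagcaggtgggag
A match is a description of the letters and not a measured site. TATAAA was in 12.3% of members and 7.06% of table genes, CCAAT in 36.0% and 39.4%, GGGCGG in 64.9% and 67.4%, CACCC in 65.8% and 62.9%, TGACGTCA in 1.75% and 3.37%, and CANNTG in 68.4% and 62.2%. GGAATG, the core of the TEAD motif, was added after the values were seen, and 21.1% of members and 11.8% of table genes had it. Both strands were searched, and TATAAA and CCAAT can each lie inside a CArG box. The windows had a median GC content of 61.0% in members and 61.3% in table genes, with CpG at 0.578 and 0.775 of the number the base content gives.

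Of the 16 role groups, heart and striated muscle genes had the highest median CM minus CP, with 7 of 9 at least 2-fold higher in CM than in CP, 0 lower and a median of 2.66. Myh6, the alpha myosin heavy chain of the heart, stood at 3.33, 0.454, 112 and 1614 RPKM (ESC, MES, CP, CM). Ankrd1, a stretch-responsive protein of the sarcomere and nucleus, was at 2.61, 0.0183, 14.3 and 544 RPKM, with a CM minus CP of 5.15, the largest of the 210. Its MES value rests on 2 recovered reads, with a 95% interval of 0.00222 to 0.0662 RPKM. Both genes were low in ESC and lower still in MES. Cryab, the small heat shock protein alpha B-crystallin that protects desmin and other filaments, was at 13.3, 0.0186, 23.6 and 285 RPKM, and its MES value rests on 1 recovered read (95% interval 0.000471 to 0.104 RPKM). Hspb2, which lies next to Cryab in the genome, followed at 2.32, 0.125, 21.7 and 143 RPKM. Smyd1, a muscle methyltransferase, was at 2.34, 0.0671, 103 and 104 RPKM, so CM and CP hardly differed. Trim63, the ubiquitin ligase MuRF1, was at 1.34, 0.131, 3.67 and 46.8 RPKM. Dysf, which repairs the muscle membrane, stood at 2.37, 0.364, 14.3 and 12.6 RPKM. Of 26 sarcomere genes in the list 3 were members (Acta1, Myh6 and Tpm1), or 11.5% against 1.55% of all genes, and 23 of the 26 were at least 2-fold higher in CP than in MES, while 3 lay 2-fold or more below their ESC level in MES. Of the 32-base words of the longest Myh6 transcript 31.8% also occur in other genes, so its level is uncertain.

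Components of desmosomes and other epithelial junctions formed a group of 11, of which CM was 2-fold or more above CP in 3 and below it in 3. Pkp2, plakophilin 2, was at 32.5, 4.14, 42.4 and 68.9 RPKM (ESC, MES, CP, CM) and Jup, plakoglobin, at 36.6, 5.79, 46.0 and 79.8 RPKM. Both proteins belong to the desmosome, which joins epithelial cells and, at the intercalated disc, heart muscle cells. Cdh3, P-cadherin, stood at 12.03, 0.953, 9.10 and 18.1 RPKM, and F11r, the tight junction protein JAM-A, at 29.8, 11.2, 23.6 and 57.3 RPKM. Krt19, a keratin of simple epithelia, was at 30.3, 5.88, 19.96 and 176 RPKM. In all of these CM was above CP. Cldn4, a claudin of epithelial tight junctions, was the opposite case at 77.3, 3.16, 10.9 and 2.11 RPKM, so CM was below MES. Of 29 epithelial junction genes in the list 6 were members (20.7%), against 1.55% of all genes. In MES 19 of the 29 lay 2-fold or more below their ESC level, against 11.2% of all genes.

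All 8 genes of the basement membrane and matrix adhesion group were higher in CM than in CP, 7 of them at least 2-fold and 0 lower, with a median difference of 1.62. Nid1, nidogen 1, which links laminin and collagen networks, stood at 24.7, 4.05, 22.04 and 92.5 RPKM (ESC, MES, CP, CM). The laminin chain genes Lamc1 and Lama5 were at 70.5, 19.8, 52.1 and 139 RPKM and at 59.6, 12.4, 31.9 and 78.9 RPKM. Bcam, a receptor for laminin alpha 5, was at 67.5, 4.44, 22.6 and 120 RPKM. Tinagl1, a secreted matrix protein, stood at 3.53, 0.0615, 2.27 and 57.5 RPKM. In each of these genes the order from low to high ended with CM. Of the 35 matrix genes in the list 3 were members and 20 were at least 2-fold higher in CM than in CP.

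**Figure D3:**
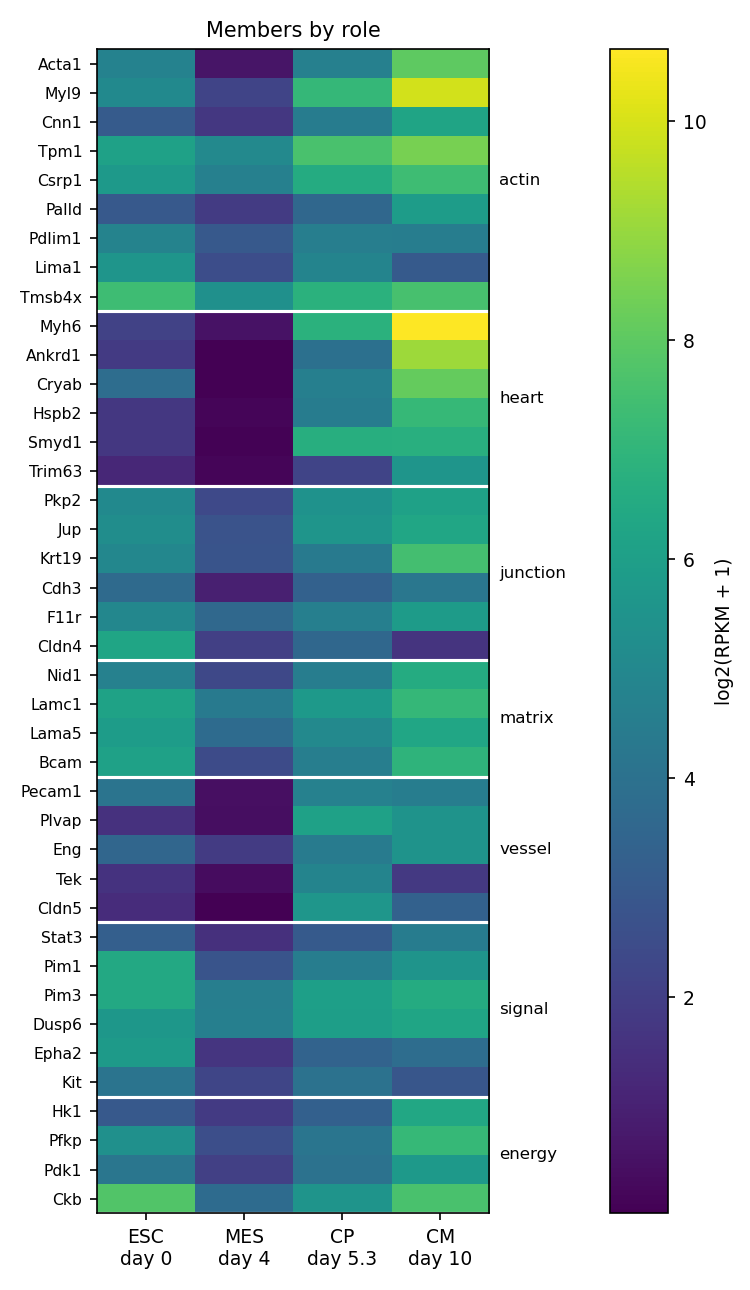
Colour gives log2(RPKM + 1) of 40 members (rows) at the 4 stages (columns), grouped by role. The MES column is the darkest in all rows but Cldn4, and the heart rows run from near 0 in MES to above 5 in CM.

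Endothelial and vascular genes formed a group of 13, of which 5 were at least 2-fold higher in CM than in CP and 3 lower. Pecam1, an adhesion molecule of endothelial cells that mouse stem cells also carry, stood at 16.2, 0.391, 24.9 and 22.4 RPKM (ESC, MES, CP, CM). Plvap, which forms the diaphragms of endothelial vesicles, was at 1.90, 0.341, 68.1 and 44.5 RPKM, and Eng, endoglin, a TGF-beta coreceptor, at 10.7, 2.61, 21.01 and 43.6 RPKM. Mcam, the adhesion molecule CD146, was at 9.93, 1.82, 14.5 and 61.3 RPKM. Like Pecam1 and Plvap, several others were highest in CP, among them Tek, the angiopoietin receptor (1.99, 0.319, 27.1 and 2.49 RPKM), the endothelial claudin Cldn5, counted with the junction genes (1.59, 0.0457, 48.5 and 8.97 RPKM) and Rasip1, which endothelial tubes need to form a lumen (8.68, 1.64, 41.4 and 8.601 RPKM). CM minus CP was -0.15 for Pecam1, -3.01 for Tek and -2.31 for Cldn5. Of the 10 endothelial markers 3 were members, 8 were at least 2-fold higher in CP than in MES, and 5 were at least 2-fold lower in CM than in CP. Their summed level was 137 RPKM in CM and 362 in CP, and the part of a difference in endothelial cells was not tested. Edn1, endothelin 1, was listed at 0 in MES, with 2.81 RPKM in ESC, 1.44 in CP and 9.92 in CM.

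Genes typical of blood and immune cells were mostly low. The 17 of them had a median of 4.24, 0.483, 2.97 and 2.24 RPKM (ESC, MES, CP, CM) over the 4 stages, and CM was 2-fold or more above CP in 2 and below it in 5, beside 11.3% and 12.8% of all genes. Kit, the stem cell factor receptor, was at 16.1, 3.74, 15.3 and 6.26 RPKM. Alox5ap, needed for leukotriene synthesis, stood at 4.41, 0.360, 12.8 and 2.21 RPKM. Laptm5, a lysosomal protein of blood cells, was highest in ESC, at 9.002, 0.142, 3.02 and 2.23 RPKM.

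Kinases, phosphatases and STAT signalling gave 13 genes, 6 of them at least 2-fold higher in CM than in CP and 1 lower. Stat3, the factor through which the cytokine LIF keeps mouse stem cells self-renewing, stood at 8.38, 1.85, 7.20 and 21.8 RPKM (ESC, MES, CP, CM). The kinase genes Pim1 and Pim3, which cytokine signalling induces in many cells, were at 86.6, 5.98, 22.1 and 45.8 RPKM and at 87.0, 22.7, 65.0 and 94.5 RPKM. The rule set MES below ESC and CP in all 3, so nothing is read from their shared low. They differed in their highest stage, which was ESC for Pim1 and CM for Stat3 and Pim3. The receptor kinase gene Epha2 was at 55.1, 2.22, 9.52 and 13.1 RPKM, so CP was well below ESC. The MAP kinase phosphatase genes Dusp6 and Dusp14 were at 50.0, 23.5, 62.7 and 76.4 RPKM and at 6.20, 1.21, 3.93 and 1.43 RPKM. Dusp27, a muscle member of that family that lacks catalytic activity, had one of the largest dips, at 44.4, 0.233, 12.7 and 22.2 RPKM. Of 10 regulators of small GTPases 2 were at least 2-fold higher and 0 lower in CM than in CP. These 2 were Rgnef and the exchange factor gene Arhgef3 (6.11, 0.654, 4.13 and 12.7 RPKM), and the exchange factor gene Dock6 was within 2-fold of CP (47.4, 10.8, 25.8 and 36.4 RPKM).

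Among metabolic genes, 6 of 8 genes of sugar and energy metabolism were at least 2-fold higher in CM than in CP and 0 lower, with a median difference of 1.86. Hk1 and Pfkp, which encode hexokinase 1 and the platelet type of phosphofructokinase, stood at 6.87, 2.61, 8.64 and 82.5 RPKM (ESC, MES, CP, CM) and at 39.9, 4.94, 17.1 and 142 RPKM. Pdk1, the kinase that shuts pyruvate dehydrogenase, was at 17.3, 3.11, 15.4 and 52.6 RPKM, and Ckb, brain creatine kinase, at 218, 12.4, 45.8 and 192 RPKM. Ckb was thus highest in ESC, with CM close to it, whereas Hk1 was at least 2-fold higher in CM than at each other stage. Of 19 glycolysis genes in the list 2 were members and 11 were at least 2-fold higher in CM than in CP. Gsta4, a glutathione transferase for products of lipid oxidation, had the second highest ESC value of the 210, at 282, 73.4, 179 and 67.5 RPKM, and was lower in CM than in MES.

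Of 6 ion transport genes 3 stood 2-fold or more above CP in CM and 0 below, among them Atp1b1, a subunit of the sodium pump, at 29.3, 2.09, 11.8 and 185 RPKM (ESC, MES, CP, CM).

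Annexins and S100 proteins, calcium-dependent binders of membranes and of other proteins, contributed Anxa2, Anxa3, Anxa6 and S100a6. Their list also holds the giant protein gene Ahnak, which is of neither family. With Ahnak, 5 of the 16 listed genes in the table were members, against 1.55% of all genes. S100a6 stood at 41.1, 1.57, 8.16 and 39.7 RPKM (ESC, MES, CP, CM), Anxa2 at 15.6, 4.37, 17.7 and 77.3 RPKM and Anxa6 at 47.6, 9.23, 49.2 and 98.9 RPKM. Lgals1, galectin 1, was among the most abundant members at 177, 42.2, 195 and 297 RPKM. Ptrf, cavin 1, which coats caveolae, was at 13.7, 1.06, 31.5 and 82.9 RPKM. MES lies below ESC and CP in all of these by the rule, and CM was above MES in each.

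Genes of stress and immediate response were members as well. Hspb1, a small heat shock protein, was at 74.5, 0.971, 4.85 and 85.8 RPKM (ESC, MES, CP, CM), Ier3 at 8.04, 0.953, 4.65 and 51.1 RPKM and the stress factor gene Atf3 at 3.12, 0.496, 4.50 and 17.5 RPKM. These 3 were at least 2-fold higher in CM than in CP, while Pawr of the stress group and Dusp6, also an immediate-early member, had a CM minus CP of -0.16 and 0.28. Of 25 immediate-early genes in the list 3 were members, and 12 of the 25 were at least 2-fold higher in CM than in CP and 0 lower, with summed levels of 1738 RPKM in CM and 776 RPKM in CP. The part of that wider difference in the members' levels was not tested. Of the 32-base words of the longest Hspb1 transcript 56.4% are shared with other genes, so its level is uncertain.

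Proteases and secreted proteins differed among themselves in CM. Mme, the membrane peptidase neprilysin, was at 9.71, 0.697, 18.8 and 0.629 RPKM (ESC, MES, CP, CM), with a CM minus CP of -3.61, the lowest of the 210. Clu, the secreted chaperone clusterin, was at 7.69, 0.624, 16.7 and 101 RPKM. Plaur, the urokinase receptor, stood at 11.8, 0.264, 1.66 and 1.81 RPKM, and Prss23, a serine protease, at 11.9, 0.317, 9.54 and 27.2 RPKM. CM was thus at the MES level for Mme, more than 4-fold above CP for Clu, and close to CP for Plaur.

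Transcription and chromatin genes were divided in CM, where 5 of 13 stood 2-fold or more above CP and 4 below it. Tet2, which oxidises 5-methylcytosine, stood at 21.9, 1.62, 7.31 and 17.5 RPKM (ESC, MES, CP, CM), and the corepressor gene Aes at 70.2, 9.37, 34.6 and 246 RPKM. Pax6, known for eye and neural development, was low throughout, at 1.99, 0.0195, 4.21 and 0.949 RPKM. Foxi3, a forkhead factor, was at 6.33, 0.571 and 2.55 RPKM in ESC, MES and CP and listed at 0 in CM, where 3 reads would have given 0.0300 RPKM. Neuronal growth genes included Gap43, a growth cone protein (9.54, 1.76, 14.7 and 4.74 RPKM), and Dpysl3 (12.3, 4.04, 21.7 and 25.2 RPKM), and 3 of 5 in this group were lower by the 2-fold step in CM and 0 higher. Bex1, a small protein of neural tissue and stem cells, had the highest ESC value of the 210, at 286, 39.6, 85.9 and 74.6 RPKM, with 43.5% of its words shared with other genes.

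**Figure D4:**
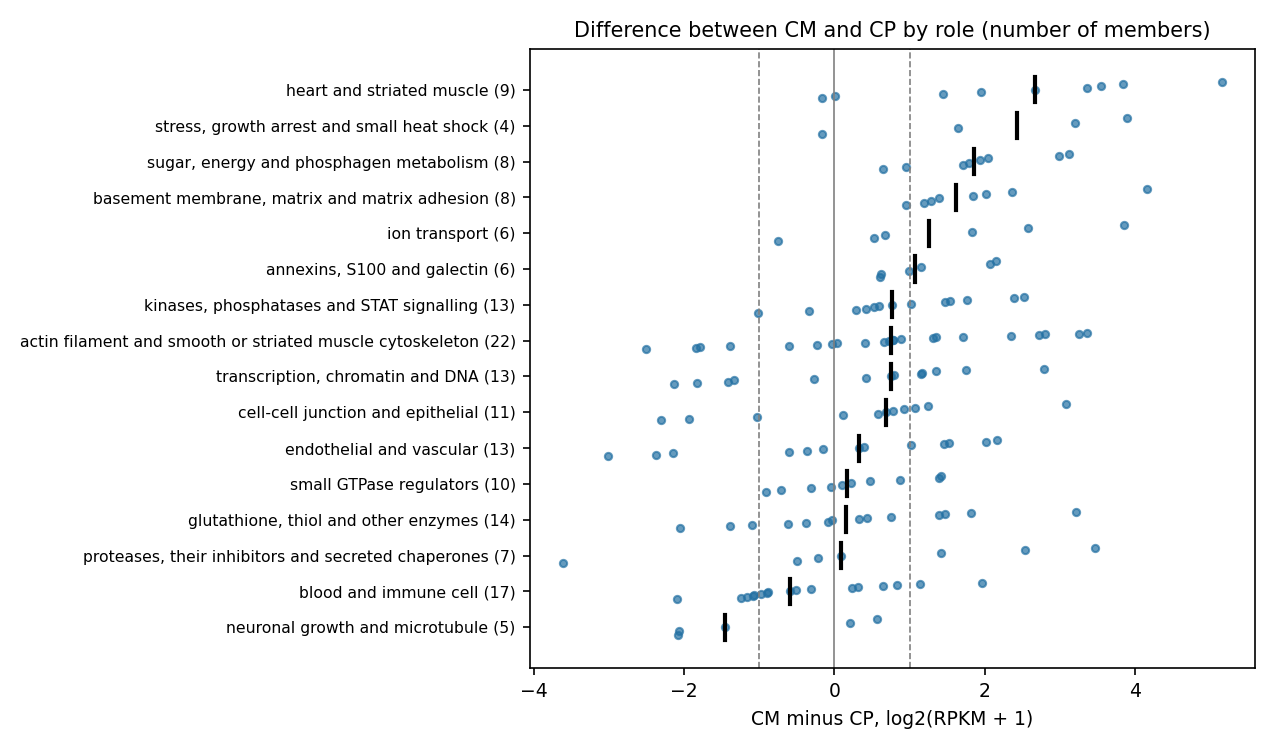
Each point is 1 member and gives its CM minus CP on the log2(RPKM + 1) scale, with roles ordered by their median (black bar) and dashed lines at 2-fold. Heart and striated muscle genes lead with a median of 2.66, and neuronal growth genes are lowest at -1.45.

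Of 55 lists 29 had no member. With 1.55% of all genes being members, a count of 0 in lists of this size is near the share over all genes, and nothing is read from it. The lists at 0 include the pluripotency markers (9 genes in the table), mesoderm markers (12), cell cycle genes (22), cytosolic ribosomal protein genes (29), nuclear-encoded respiratory chain genes (29), cholesterol synthesis genes (22), apoptosis regulators (24) and WNT genes (25). In all, 56 of the 965 listed genes in the table (5.80%) were members, against 1.55% of all genes. The lists were written with earlier results on these data known, so nothing is read from that difference.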

How the data were processed

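Sequencing used an Illumina GAIIx instrument (labels' protocols). Reads were aligned with Novoalign 2.07.00 to mm9, per the submitters' processing notes. For the read counter, the annotation and the merging of libraries, the method is "not given in the sources used here". RPKM values were deposited by the authors as 1 column per stage, per the file headers, and the lowest maximum of any gene is 1.00017 RPKM, so genes under 1 RPKM throughout were not analysed here. With no library columns, the planned limma fits were not run and no value has a p.

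The members and lists were chosen with earlier results of these data known. A pseudocount of 1 and a 2-fold step were used. Depth came from the ratios of low values and from exon lengths of GENCODE M21 (GRCm38; no coordinates used). Whole reads, as the smallest numbers that give the values, were recovered for 73.3% of genes (72.7% of 1354 genes checked, against 0.517% with wrong depths). For a 2 kb gene, 1 RPKM in MES is 124 reads, and 3 reads are 0.0199 (ESC), 0.0242 (MES), 0.0232 (CP) and 0.0169 RPKM (CM). Shared sequence is the percentage of 32-base words of the longest M21 transcript found in other genes, and exceeds 50% in Pde2a, Insl3 and Hspb1. Strand was not stated, so overlapping genes such as Jak3 and Insl3 cannot be told apart. Genes were named by a fixed rule: the 12 largest dips, the 8 highest and 8 lowest in CM minus CP, the 8 highest in CM and in ESC, up to 6 members of each list and 3 genes on each side of the threshold. Other members were named by function after their values were seen. Some genes that the rule names are not reported here. The rule and the read recovery were tried on simulated data with counting error only. The dips planted there were larger than most of those reported. The simulation cannot show how the rule acts near its threshold or with differences between libraries. Python 3.11.15, numpy 2.4.6, scipy 1.17.1 and pandas 2.3.3 were used.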

Additional observations from a re-analysis of the deposited data

How the results depend on the processing

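The number of genes that meet the rule depended mostly on the pseudocount relative to the values and on the fold required. It changed less with quantile or median ratio scaling, and the direction of the CM results did not change. Stage sums were 240579 (CP) to 264636 RPKM (ESC), so scaling each stage to 1000000 raised all values against the pseudocount of 1. In the order of genes meeting the rule, lower in CM than CP, higher in CM than CP, higher in CM than MES and lower in CM than ESC, the counts were 210, 36, 80, 161 and 41 as reported. They were 561, 129, 228, 444 and 142 with a pseudocount of 0.1, 326, 69, 129, 257 and 69 with 0.5, 449, 106, 170, 344 and 112 when every stage summed to 1000000, and 20, 3, 9, 17 and 3 with a dip of at least 4-fold. All 210 genes met the rule under the first 3 of these. With genes that reach 3 RPKM, quantile normalization and median ratio scaling, 197, 175 and 235 genes met the rule, 197, 173 and 210 of them among the reported ones. The share of genes higher in CM than in CP ranged from 37.9% to 45% over these settings, and that of all genes from 11.3% to 14.3%. The share lower in CM than in CP ranged from 15% to 23.6%, and that of all genes from 10.2% to 20.7%. These 2 downward shares were closest, at 23.6% and 20.7%, when every stage summed to 1000000. The median CM minus CP of 0.59 became 0.64, 0.65, 0.50 and 0.98 under the 4 settings with full counts and 0.68, 0.67 and 0.69 under the other 3, and the median CM minus MES of 2.30 became 2.67, 2.36, 2.40, 4.22, 2.47, 2.52 and 2.35 in the same order. The median CM minus CP of all genes, -0.15, became -0.29 when every stage summed to 1000000.

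No paired analysis was possible because the table has no columns for single libraries, and leaving out a library was not possible for the same reason. Depth limits the lowest values, and 9 members had fewer than 10 estimated reads in MES. Whole reads could not be recovered for 79 members, which is no measure of low depth. Their estimated MES reads could be many (12578 for Tpm1) or few (17 for Synpo2l).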

Other observations

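Some of the 14 genes set aside by name had large dips, and others were near the threshold. Acta2 had the largest dip of all 224 genes that met the rule, 5.48 on the log2(RPKM + 1) scale, and Tagln, the actin-binding protein transgelin, was at 134, 2.26, 43.2 and 408 RPKM (ESC, MES, CP, CM). Col1a1, a chain of type I collagen, was at 14.8, 0.615, 19.9 and 151 RPKM, and Itgb3, an integrin subunit of platelets and vessels, at 1.18, 0.0801, 8.47 and 24.1 RPKM. Klf2 (165, 0.996, 6.72 and 3.61 RPKM) and Dppa4 (34.7, 0.273, 4.05 and 0.140 RPKM) met the rule although both recovered little of their ESC level in CP.

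Among protein-coding genes in RefSeq order (GRCm38.p6), 6 pairs of members were direct neighbours: Stat3 and Ptrf, Sncg and Mmrn2, Notch4 and Gpsm3, Jak3 and Insl3, Cryab and Hspb2, and Vill and Plcd1. In Insl3, 63.0% of the 32-base words of the longest transcript are shared with other genes, so its values of 3.03, 0.221, 8.25 and 12.2 RPKM are uncertain.

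Members outside any role group also had large differences. Ndrg2 stood at 10.95, 2.59, 9.23 and 254 RPKM (ESC, MES, CP, CM) and Lrp2, the endocytic receptor megalin, at 12.8, 0.242, 1.99 and 0.0663 RPKM.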
